A study of Mus musculus with 8 samples.

Results

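Circular RNAs from the genes of fatty acid and mitochondrial metabolism were examined in mouse hearts. A circular RNA, called a circle here, is a closed RNA loop in which a splice donor has been joined to an acceptor lying upstream of it. The members were all circles whose host gene, as named in the deposited table, belonged to a list of 45 genes in 9 roles, from the nuclear receptors of energy metabolism to ATP synthase. The table held 215 such circles of 27391 in all, from 38 of the 45 genes, against 6492 host genes in the whole table. No circle of Cpt2, Esrra, Esrrb, Ldhd, Letm1, Pdk4 or Ppard was listed.

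Hearts were taken from male wild-type mice at 8 weeks after surgery. In 4 mice the aortic arch had been narrowed by transverse aortic constriction (TAC), which makes the left ventricle pump against a raised pressure, and 4 mice had a sham operation. The strain, the age and the part of the heart were not given in the sources used here. All values below are reads over a circle's junction after division by the size factor of their library, called normalised reads. They are not scaled by length, so levels of different genes are set side by side without ranking their transcription. Values are means ± SD over 4 mice per group unless given library by library.

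The adult heart draws most of its ATP from long-chain fatty acids. These are taken up with the help of CD36, carried into mitochondria by the carnitine shuttle, shortened by beta-oxidation and burned in the citrate cycle and respiratory chain. PPARα, the estrogen-related receptors and the PGC-1 coactivators drive the genes of this pathway, and pressure-overloaded hearts are known for a shift from fatty acids toward glucose.

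Depth differed widely. Read totals were 33132, 1119, 21074 and 36120 in TAC replicates 1 to 4, against 40796, 3963, 17890 and 100142 in sham replicates 1 to 4. TAC replicate 2 and sham replicate 2 therefore stood apart: 3 reads, the limit that a count of 0 allows, equal 17.3 normalised reads in TAC replicate 2 and 13.6 in sham replicate 2, against 0.584 to 3.09 in the other 6 libraries. The spliced length at the median read was 543, 334, 519 and 499 nt in TAC replicates 1 to 4, against 395, 492, 369 and 353 nt in sham replicates 1 to 4, so the shallow library of each group lay nearer to the other group. Of the cardiomyocyte markers 13 of 15 were present as hosts, with summed levels of 289 to 1711 in TAC libraries and 200 to 809 in sham libraries, while Tnni3 and Pln were not listed. Fewer cells of a type and less RNA per cell cannot be told apart in these tissue libraries.

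The sequences of 4 circles are shown because the fold changes below turn on 3 of them and the first held most member reads. They are written 5′ to 3′ along the coding strand from GENCODE M21 transcripts (mm10). The first 3 are given whole, in lower case with every other exon in capitals, and their last base joins their first. Of the Cd36 circle, the last 140 bases before the junction are in lower case and the first 140 after it in capitals. The circles are Ogdh exons 3 to 4 (chr11:6313788-6317080, plus strand, 295 nt), Hadhb exons 4 to 6 (chr5:30166665-30169595, plus strand, 245 nt), Atp5o exons 4 to 5 (chr16:91926459-91926982, minus strand, 243 nt) and Cd36 exons 10 to 12 (chr5:17795579-17798298, minus strand, 377 nt). All 4 lie wholly within coding sequence.
Ogdh exons 3 to 4: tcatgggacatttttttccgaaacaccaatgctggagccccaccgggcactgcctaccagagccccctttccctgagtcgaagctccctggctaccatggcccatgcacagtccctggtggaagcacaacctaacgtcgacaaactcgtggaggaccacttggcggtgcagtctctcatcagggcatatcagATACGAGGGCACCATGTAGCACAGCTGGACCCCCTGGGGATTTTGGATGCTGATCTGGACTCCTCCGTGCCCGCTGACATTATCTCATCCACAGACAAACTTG
Hadhb exons 4 to 6: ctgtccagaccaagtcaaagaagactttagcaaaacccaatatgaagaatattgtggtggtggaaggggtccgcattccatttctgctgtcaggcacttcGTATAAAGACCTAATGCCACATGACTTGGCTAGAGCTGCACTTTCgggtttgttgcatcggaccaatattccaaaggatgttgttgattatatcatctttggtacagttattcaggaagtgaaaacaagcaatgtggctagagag
Atp5o exons 4 to 5: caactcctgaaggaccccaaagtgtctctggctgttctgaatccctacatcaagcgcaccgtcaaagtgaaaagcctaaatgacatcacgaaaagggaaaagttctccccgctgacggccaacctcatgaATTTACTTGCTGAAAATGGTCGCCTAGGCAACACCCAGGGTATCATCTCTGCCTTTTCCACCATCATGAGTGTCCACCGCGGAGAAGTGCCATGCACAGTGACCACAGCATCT
Cd36 exons 10 to 12: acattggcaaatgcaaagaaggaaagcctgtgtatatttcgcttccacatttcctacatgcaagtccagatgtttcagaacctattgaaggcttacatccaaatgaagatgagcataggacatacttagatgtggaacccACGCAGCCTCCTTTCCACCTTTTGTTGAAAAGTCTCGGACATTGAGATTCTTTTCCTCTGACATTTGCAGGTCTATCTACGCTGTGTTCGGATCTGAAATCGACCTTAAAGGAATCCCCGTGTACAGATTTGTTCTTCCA

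For the other circles described in detail, the junction alone is shown, as the last 20 bases of the circle in lower case followed by its first 20 bases in capitals. The circles are Cd36 exons 5 to 9 (chr5:17811181-17820600, minus strand, 628 nt), Cd36 exons 6 to 9 (chr5:17811181-17814820, minus strand, 467 nt), Gbe1 exons 4 to 7 (chr16:70433545-70441319, plus strand, 563 nt) and Mfn1 exons 8 to 14 (chr3:32554155-32564305, plus strand, 909 nt). The first pair ends at the same splice donor, so their lower-case letters are identical and only the capitals differ.
Cd36 exons 5 to 9: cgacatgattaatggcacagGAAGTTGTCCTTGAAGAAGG
Cd36 exons 6 to 9: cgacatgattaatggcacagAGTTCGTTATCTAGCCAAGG
Gbe1 exons 4 to 7: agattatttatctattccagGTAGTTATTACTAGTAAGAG
Mfn1 exons 8 to 14: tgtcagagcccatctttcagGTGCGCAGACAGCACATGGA

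The 215 member circles held 3861 of 254236 reads (1.52%). Exonic circles made up 202 of them and intronic circles 13 (6.05%, against 4.84% of all circles). Most were rare: 139 were seen in 1 library only (64.7%, against 61.7% of all circles), 104 rested on a single read, and 2 were seen in all 8 libraries, the Ogdh and Esrrg circles of exons 3 to 4. The median spliced length was 502 nt for the members and 505 nt for all circles. Of 201 exonic members placed on a transcript, 36 began at exon 2 (17.9%, against 22.5% of all circles), 0 began at exon 1 and 0 held the last exon. Coding sequence filled 166 of the 201, and in 67 of these 166 the length was a multiple of 3.

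A few hosts carried most of the signal. Ogdh alone held 58.7% of the member reads, and 7 hosts with a mean of at least 5 normalised reads (Ogdh, Cd36, Gbe1, Hadhb, Esrrg, Mfn1 and Atp5o) held 3421 reads (88.6%). Another 12 hosts had means of 1 to 5 and 19 had means under 1, and 16 hosts rested on fewer than 10 reads. The median host gave 5 circles, against 2 over all hosts in the table. Cd36 gave 20, Ogdh 16, Hadhb 15, Mfn1 13 and Acacb 13, whereas Gbe1 and Atp5o gave 3 each. The heat map of host sums shows how Ogdh exceeded the others in every library.

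**Figure D1:**
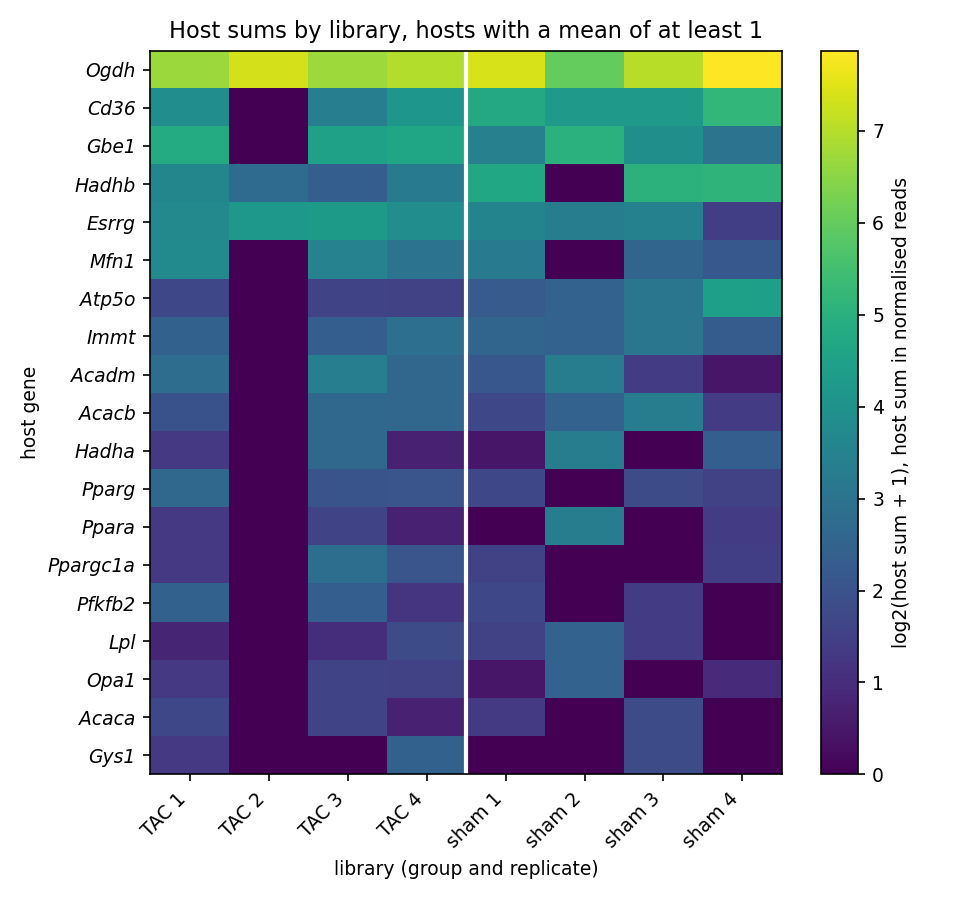
Host sums by library for the 19 member hosts with a mean of at least 1 normalised read, colored by log2(host sum + 1), with TAC libraries left of the white line and sham libraries right of it. Ogdh is the brightest row in all 8 libraries, and TAC replicate 2, with 1119 reads in all, is at 0 for all hosts but Ogdh, Hadhb and Esrrg.

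The comparison of TAC with sham was run on single circles and on host sums, over the whole table. In limma on log2 values, 0 of 26 member circles tested passed an adjusted p of 0.05, and 1 of 3735 circles in the table did (0.0268%). Unadjusted, 3 members had a limma p under 0.05 (11.5%, against 4.07% of all circles), all of them Cd36 circles. The median log2 fold change, TAC over sham, was 0.06 for the member circles and 0.15 for all circles. For host sums, limma called 0 of 22 member hosts and 1 of 2967 hosts (0.0337%). Unadjusted, 1 member host (Cd36) had a limma p under 0.05 (4.55%, against 3.03% of all hosts). The medians were 0.15 for member hosts and 0.13 for all hosts.

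edgeR's quasi-likelihood test on the recovered whole reads, which weights libraries by their depth, called 94 of 717 circles (13.1%), 41 of them lower in TAC (5.72%). Of the 6 member circles that passed its filter, 3 were called, all lower in TAC. They were Cd36 exons 10 to 12, Atp5o exons 4 to 5 and Hadhb exons 4 to 6. The filter asks for a minimum level, scaled to depth, in as many libraries as a group holds. The Cd36 and Atp5o circles reached it in sham libraries only, so they were tested because they were high in sham, which favoured a lower call. edgeR called 84 of 1020 hosts (8.24%), 50 of them lower in TAC (4.90%). It called 2 of 10 member hosts, Atp5o and Hadhb, both lower, and Atp5o too passed the filter through sham libraries only. Each of these calls was lost when TAC replicate 1, 3 or 4 was left out, with adjusted p between 0.0640 and 0.171 for the Cd36 circle, between 0.172 and 0.270 for the Atp5o circle and between 0.148 and 0.359 for the Hadhb circle. The Hadhb circle was also lost without sham replicate 3 (adjusted p = 0.109) or 4 (0.0627), and the Atp5o circle without sham replicate 3 (0.0850) or 4 (0.185). DESeq2 called 34 of the 1125 circles to which it gave an adjusted p (3.02%), 13 of them lower (1.16%), among them 1 member, the Cd36 circle. It called 28 of 1068 hosts (2.62%), 18 of them lower (1.69%) and 0 of them members. An unadjusted DESeq2 p under 0.05 was given to 3 member hosts (13.6%, against 8.10% of all hosts).

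Without the 2 libraries under 5000 reads, edgeR called 344 of 1145 circles (30.0%) and 156 of them lower (13.6%). Of 11 member circles, 6 were called, all lower in TAC: 3 of Cd36 and 1 each of Hadhb, Atp5o and Ogdh. The 3 Cd36 circles, the Atp5o circle and the Atp5o host passed edgeR's filter through sham libraries only, which favoured a lower call. Member hosts called in that fit were 4 of 12, all lower (Hadhb, Atp5o, Cd36 and Ogdh), against 299 of 1387 hosts (21.6%) in all and 148 lower (10.7%). limma on the same 6 libraries called 407 of 3494 circles (11.6%), 123 of them lower (3.52%), and 4 of 25 member circles, all lower. It called 357 of 2881 hosts (12.4%), 74 lower (2.57%) and 283 higher (9.82%), and 3 of 22 member hosts, with Hadhb and Atp5o lower and Gbe1 higher. The median log2 fold change in this limma fit lay above 0, at 0.61 over all hosts and 1.02 over member hosts. For circles it was 0.45 over all and 0.27 over members.

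Spliced length moved with the fold change over the whole table. Of the circles edgeR tested, 105 were under 300 nt, and 22 of these were called lower in TAC (21.0%) and 0 higher. Among 258 circles of 500 nt and over, 0 were called lower and 47 higher. The median log2 fold change was −1.34 under 300 nt, −0.32 from 300 to under 500 nt and 0.89 from 500 nt. Of the 6 member circles in this test, the Hadhb, Atp5o and Ogdh circles were under 300 nt, the Cd36 circle was between, and the Esrrg and Gbe1 circles were over 500 nt. With each library's length trend as an offset, edgeR called 28 of 717 circles (3.91%), 20 of them lower (2.79%), and 1 member, the Cd36 circle.

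**Figure D2:**
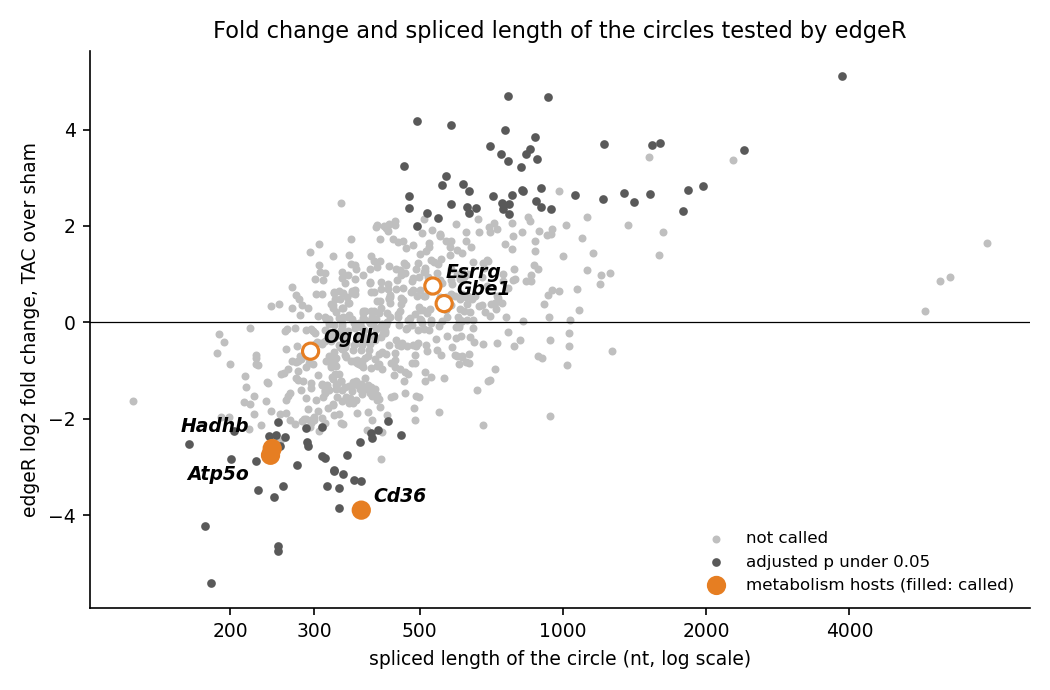
edgeR log2 fold change, TAC over sham, against spliced length on a log scale, with each tested circle as a point. The 6 circles of metabolism hosts are ringed, with the Cd36, Hadhb and Atp5o circles filled as called lower and the Ogdh circle lying within the cloud of short circles.

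Library by library, the 4 TAC and 4 sham values did not overlap for 4 of the 26 member circles, against 116 of 3735 circles in all (3.11%; 2.22% lower and 0.884% higher in TAC). The circles were Cd36 exons 10 to 12, Cd36 exons 5 to 9 and Atp5o exons 4 to 5, lower in TAC, and Esrrg exons 3 to 4, higher in TAC. For host sums this held for 3 of 22 members, against 96 of 2967 hosts (3.24%; 1.89% lower and 1.35% higher), with Cd36 and Atp5o lower and Esrrg higher in TAC. Each had a two-sided exact permutation p of 0.0286, which is the smallest that 4 against 4 allows. After TMM rescaling 1 of these hosts, Atp5o, and 2 of these circles, both of Cd36, still had no overlap. The exact permutation p then was 0.0571 for the Cd36 host and the Atp5o circle, 0.286 for the Esrrg host and 0.257 for the Esrrg circle; the rescaling of the circles was added after seeing the data. The shares over all circles and hosts were not counted after TMM rescaling. The strip plot of host sums shows these libraries one by one.

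**Figure D3:**
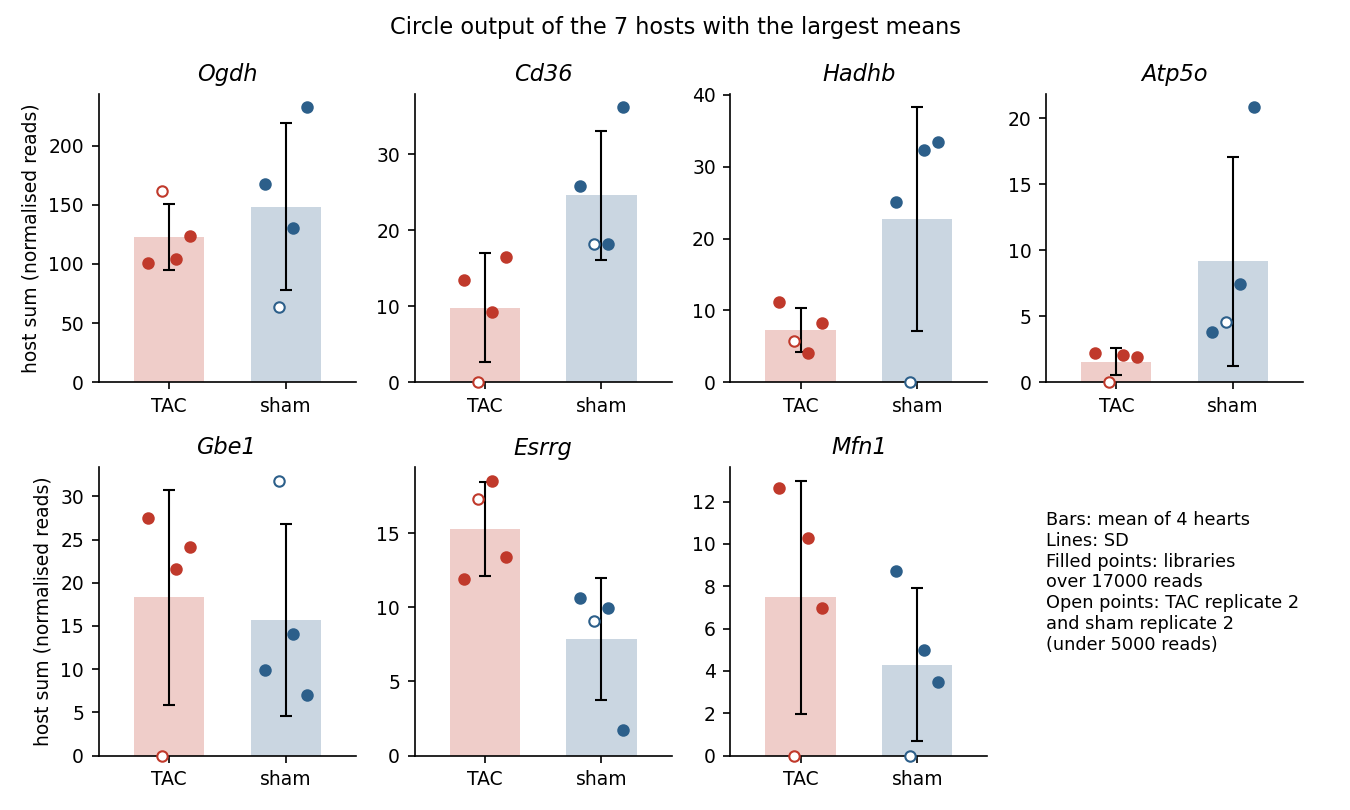
Host sums in normalised reads for the 7 hosts with a mean of at least 5, TAC left and sham right, with points for libraries, bars for means and lines for SD (n = 4 each), and open points for TAC replicate 2 and sham replicate 2. Cd36, Atp5o and Esrrg have no overlap between the groups on this scale (after TMM rescaling, Atp5o alone), and the Hadhb values overlap only through sham replicate 2, at 0.

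Among the nuclear receptors and coactivators, Esrrg had the most reads. It encodes ERRγ, an orphan receptor that drives oxidative metabolism genes in heart. Its host sum was 11.9, 17.3, 18.5 and 13.4 normalised reads in TAC replicates 1 to 4, against 10.6, 9.09, 9.94 and 1.75 in sham replicates 1 to 4. All 4 TAC libraries were higher than every sham library, which did not hold after TMM rescaling, and TAC replicate 2 and sham replicate 2 rested on 3 and 2 reads. The means were 15.3 ± 3.15 in TAC and 7.85 ± 4.11 in sham. The difference did not pass the fit across hosts (limma log2 fold change 1.19 ± 1.22 SE; edgeR 0.58 ± 0.63, adjusted p = 0.619, and 0.61 ± 0.60, adjusted p = 0.507, without the 2 shallow libraries), and sham replicate 4 was the only sham library under 9. Its dominant circle, exons 3 to 4 (chr1:188043334-188066457, 533 nt, with the start codon), made up 90.5% of the host mean and was at 11.2, 17.3, 16.47 and 10.2 in TAC, against 7.96, 9.09, 9.94 and 1.56 in sham. For this circle edgeR gave 0.75 ± 0.73 (adjusted p = 0.539), and 0.40 ± 0.73 (adjusted p = 0.780) with the length offset. Leaving out sham replicate 4 lowered its limma log2 fold change to 0.57 ± 1.39, against 1.17 ± 1.31 with all libraries.

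The other receptors and coactivators were sparse. Pparg, best known from adipocytes, averaged 2.87 ± 2.15 in TAC and 1.68 ± 1.14 in sham, and its 7 circles had 34 reads. Ppargc1a, which encodes the coactivator PGC-1α, averaged 2.71 ± 2.65 in TAC and 0.912 ± 1.05 in sham. Ppara, the receptor that senses fatty acids in heart muscle, averaged 1.05 ± 0.910 in TAC and 2.66 ± 4.35 in sham, where sham replicate 2 was at 9.09 on 2 reads. None of these 3 passed limma or had groups apart, and Ppargc1b was seen in 2 libraries. Of the adipocyte markers 2 of 10 were listed, Adipoq, Plin1 and Fabp4 not among them, and their sums were 0 to 2.23 in TAC libraries and 0 to 1.90 in sham libraries.

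In fatty acid uptake, Cd36 gave the most varied set of circles. CD36 is the membrane protein that brings long-chain fatty acids into heart muscle, and it is also made by capillary endothelium, macrophages and adipocytes. Summed over its 20 circles, the host was at 13.4, 0, 9.26 and 16.54 normalised reads in TAC replicates 1 to 4, against 25.8, 18.2, 18.2 and 36.2 in sham replicates 1 to 4. Every TAC library was lower than every sham library, which did not hold after TMM rescaling, and the 0 of TAC replicate 2 allows up to 17.3. The means were 9.80 ± 7.18 in TAC and 24.6 ± 8.52 in sham. This host difference did not pass the adjustment with all 8 libraries. limma gave −2.39 ± 1.21 SE (unadjusted p = 0.0476), edgeR −1.53 ± 0.64 (adjusted p = 0.117) and DESeq2 −1.42 ± 0.56 (adjusted p = 0.149). Without the 2 shallow libraries it passed edgeR (−1.43 ± 0.35, adjusted p = 0.00904) and did not pass limma (−1.01 ± 0.39, adjusted p = 0.0807).

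The dominant Cd36 circle, exons 10 to 12, covers codons 250 to 375 of 472. It held 1, 0, 0 and 2 reads in TAC replicates 1 to 4, or 0.744, 0, 0 and 1.27 normalised reads, against 17, 2, 8 and 83 reads, or 6.45, 9.09, 6.62 and 16.1, in sham replicates 1 to 4. All TAC libraries were lower than all sham libraries, and the group means were 0.504 ± 0.621 in TAC and 9.58 ± 4.54 in sham. The 0 of TAC replicate 2 allows up to 17.3, above every sham value, and sham replicate 2 rested on 2 reads. edgeR gave a log2 fold change of −3.89 ± 0.96 (adjusted p = 0.00407), DESeq2 −3.63 ± 1.09 (adjusted p = 0.0436) and edgeR with the length offset −3.70 ± 0.81 (adjusted p = 0.0239). limma with all libraries gave −4.25 ± 1.61, which did not pass (adjusted p = 0.834). Without the 2 shallow libraries edgeR gave −3.80 ± 0.78 (adjusted p = 0.00258). In these edgeR fits the circle passed the filter through sham libraries only, which favoured a lower call. Within Cd36 this circle took 1 of 18, 0 of 9 and 2 of 26 host reads in TAC replicates 1, 3 and 4, against 17 of 68, 2 of 4, 8 of 22 and 83 of 186 in sham replicates 1 to 4. The largest of the TAC shares was 7.69% (95% Wilson interval 2.14 to 24.1), counting error only.

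A pair of circles ending at exon 9 ran the same way. Exons 5 to 9 were at 0, 0, 1.03 and 1.91 in TAC, against 7.96, 9.09, 4.97 and 2.92 in sham, with no overlap between the groups, although the 0 of TAC replicate 2 allows up to 17.3. Exons 6 to 9 were at 0, 0, 0 and 0.636 in TAC, against 2.28, 0, 3.31 and 8.37 in sham, where the 0 in sham replicate 2 overlapped. Neither passed edgeR's filter on all 8 libraries, and both were called lower without the 2 shallow ones (−2.53 ± 0.91, adjusted p = 0.0472, and −4.12 ± 1.14, adjusted p = 0.0137). In that fit both circles passed the filter through sham libraries only, so a lower call was the likelier outcome once they were tested. limma on all 8 libraries called neither (adjusted p = 0.834 for both, and 0.455 and 0.478 with the length trend removed), and without the shallow libraries it gave an adjusted p of 0.0529 for exons 5 to 9 and 0.0311 for exons 6 to 9. At 628 and 467 nt they were longer than the other called members. In a limma fit added after seeing the data, with the length trend removed and the shallow libraries left out, the longer one gave −4.02 ± 0.96 (adjusted p = 0.00321) and the shorter one −4.47 ± 1.21 (adjusted p = 0.0117).

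Other Cd36 circles, among them those from the 5′ end, had other values. A split of the 19 exonic circles by first exon, chosen after their values were seen, put 5 circles from exon 2 or 3 at 5.07 ± 3.73 in TAC and 4.20 ± 4.43 in sham. The 14 circles from exon 5 onward were at 4.72 ± 3.89 in TAC and 19.98 ± 5.12 in sham. Circles from exon 2 or 3 thus held 38.9%, 66.7% and 53.8% of exonic Cd36 reads in TAC replicates 1, 3 and 4, against 27.9%, 0%, 5.0% and 24.2% in sham replicates 1 to 4. The sham level of the 14 circles lay mostly in those of exons 10 to 12, 5 to 9 and 6 to 9. The split therefore does not describe every circle from exon 5 onward. The 4 circles starting at exon 7, on 7 reads, ran the other way, at 1.06 ± 1.41 in TAC and 0.0948 ± 0.190 in sham. The difference between both parts of the gene was not tested. Exon 9 and exon 12 were the commonest ends, with 5 circles each, holding 39.0% and 36.0% of the host's reads. All 12 endothelial markers were present as hosts, with sums of 5.77 to 67.4 in TAC libraries and 20.1 to 45.4 in sham libraries, and the leukocyte markers (5 of 9, without Cd68 and Csf1r) had sums of 11.5 to 24.8 in TAC and 7.58 to 19.0 in sham; their part in the Cd36 values was not tested.

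**Figure D4:**
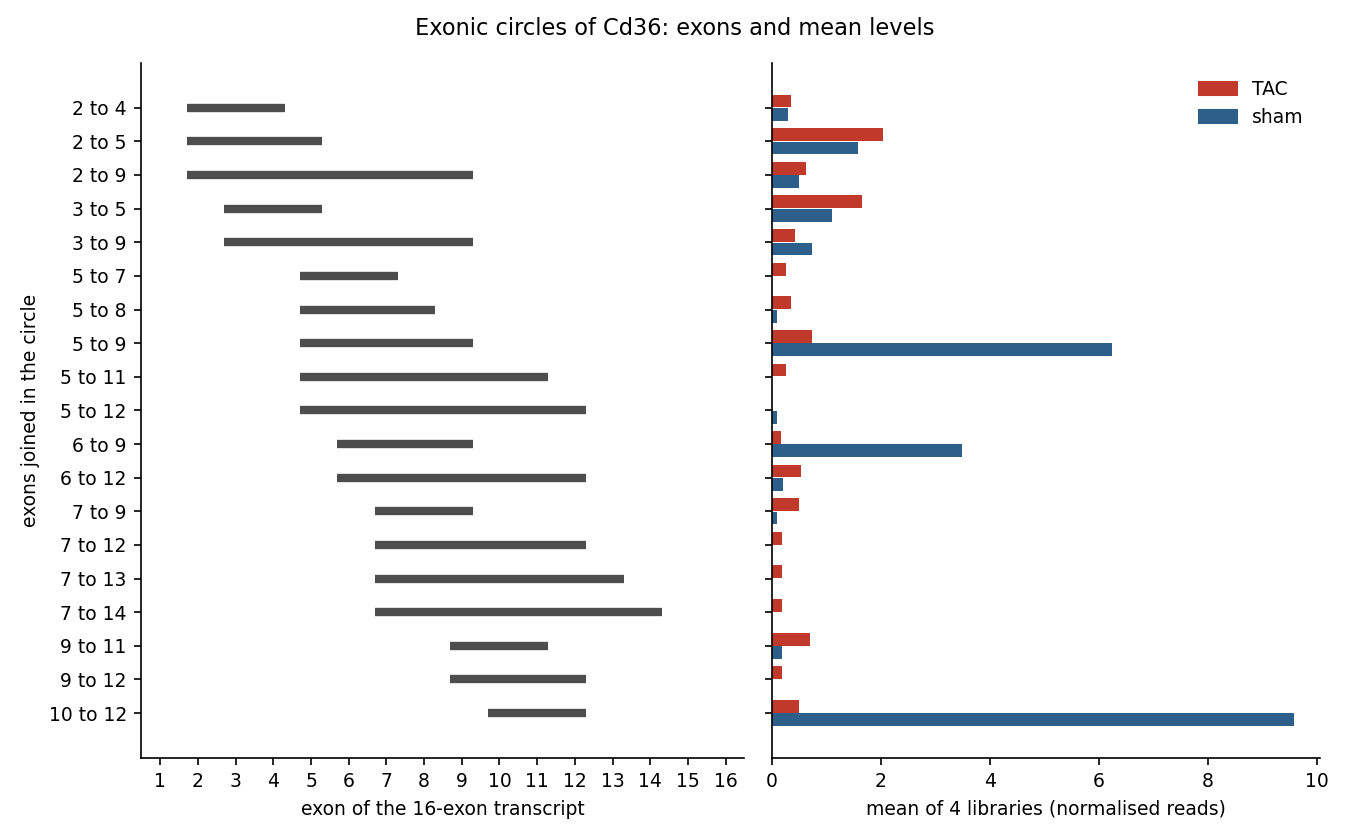
The 19 exonic circles of Cd36, with the exons each joins on the left and the mean of 4 libraries in normalised reads on the right, TAC above sham. Circles of exons 10 to 12, 5 to 9 and 6 to 9 have sham means of 9.58, 6.23 and 3.49, against TAC means of 0.504, 0.734 and 0.159, while circles from exon 2 or 3 have means of at most 2.04 in TAC and 1.59 in sham.

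The remaining uptake genes had few reads. Lpl, the lipase that frees fatty acids from circulating triglyceride, averaged 1.08 ± 1.07 in TAC and 2.02 ± 1.88 in sham, with 91.8% of its mean in exons 2 to 5. Acsl1, which activates fatty acids to acyl-CoA, averaged 0.788 ± 0.630 in TAC and 0.284 ± 0.569 in sham, on 7 reads. Neither passed limma.

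The carnitine shuttle was hardly seen. Cpt1b, the muscle form of the enzyme that commits fatty acids to mitochondria, had 2 reads, both in TAC libraries, and Cpt1a had 2 and Mlycd 1. The acetyl-CoA carboxylases, which make the CPT1 inhibitor malonyl-CoA, had more. Acacb averaged 3.30 ± 2.42 in TAC and 4.37 ± 3.41 in sham over 13 circles, with 57.3% of its mean in exons 16 to 18 of 52. Acaca averaged 1.23 ± 1.09 in TAC and 1.0 ± 1.22 in sham over 10 circles. edgeR did not call Acacb (−0.35 ± 0.74, adjusted p = 0.836; −0.17 ± 0.77, adjusted p = 0.902, without the 2 shallow libraries), and limma did not call Acaca (0.59 ± 1.41). The 0 of TAC replicate 2 for both allows up to 17.3.

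Within beta-oxidation, Hadhb was the main host. It encodes the subunit of the mitochondrial trifunctional protein that carries the thiolase. Its sum was 11.2, 5.77, 4.12 and 8.27 in TAC replicates 1 to 4, against 25.03, 0, 32.3 and 33.5 in sham replicates 1 to 4. The 3 deep sham libraries were above every TAC library, and sham replicate 2 was at 0, which allows up to 13.6. The means were 7.33 ± 3.07 in TAC and 22.7 ± 15.6 in sham. edgeR called the host lower (−2.17 ± 0.67, adjusted p = 0.0276). That call was lost without TAC replicate 1, 3 or 4 (adjusted p between 0.187 and 0.384), and without sham replicate 3 (0.140) or 4 (0.0589). For the host, limma with all libraries gave −0.28 ± 1.31 and without the 2 shallow ones −2.02 ± 0.41 (adjusted p = 0.00025).

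The dominant Hadhb circle, exons 4 to 6, made up 64.0% of the host mean. It was at 5.95, 0, 1.03 and 4.45 in TAC replicates 1 to 4, against 16.7, 0, 21.5 and 27.2 in sham replicates 1 to 4. Sham replicate 2 again overlapped the TAC libraries at 0. edgeR gave −2.62 ± 0.82 (adjusted p = 0.0204), and −1.35 ± 0.66 (adjusted p = 0.217) with the length offset. Its share of Hadhb reads was 8 of 15, 1 of 4 and 7 of 13 reads in TAC replicates 1, 3 and 4, against 66.7%, 66.7% and 81.4% in sham replicates 1, 3 and 4. Exon 6 was the common end of 4 Hadhb circles, which held 84.5% of the host's reads.

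The partner gene Hadha, whose protein carries the hydratase and dehydrogenase steps, averaged 1.82 ± 2.30 in TAC and 3.39 ± 4.22 in sham. Its most abundant circle, exons 2 to 3 (113 nt), was at 0 in all TAC libraries, and at 9.09 and 1.56 in sham replicates 2 and 4 with 0 in the other sham libraries. The 9.09 of sham replicate 2 was 2 reads, and the 0 of TAC replicate 2 allows up to 17.3. This circle did not pass the filter of 4 libraries, and with a filter of 2 libraries limma called 0 of 76 member circles. Acadm, the medium-chain acyl-CoA dehydrogenase, averaged 5.07 ± 3.83 in TAC and 3.64 ± 3.84 in sham (edgeR 1.05 ± 0.76, adjusted p = 0.411). The deep TAC libraries, at 5.95, 9.26 and 5.09, were above the deep sham libraries, at 3.41, 1.66 and 0.389. The shallow ones went the other way, with 0 reads in TAC replicate 2 and 2 reads (9.09) in sham replicate 2. Without the shallow libraries edgeR gave 1.52 ± 0.77 (adjusted p = 0.170) and limma 2.10 ± 0.77 (adjusted p = 0.0615). The leading Acadm circle joined exons 3 to 8. Acadl and Acadvl, the long and very long chain dehydrogenases, had 4 and 3 reads, and Ech1 had 1. Of the 6 beta-oxidation hosts, edgeR tested 2 and called 1, Hadhb, against 84 of 1020 hosts in all (8.24%; 4.90% lower in TAC).

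The pyruvate dehydrogenase genes, which pass glucose carbon into the citrate cycle, were at the edge of detection. Dlat, Pdha1 and Pdhx had 18, 6 and 6 reads, and their sum averaged 1.48 ± 2.10 in TAC and 1.48 ± 1.29 in sham. Pdha1 alone had enough libraries for limma (0.12 ± 1.11).

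In the citrate cycle nearly all reads came from 1 circle of Ogdh, the gene of the E1 subunit of the 2-oxoglutarate dehydrogenase complex. The circle of exons 3 to 4 covers codons 75 to 173 of 1023 and made up 96.4% of the host mean. It was at 88.5, 162, 95.7 and 116 in TAC replicates 1 to 4, against 162, 63.6, 127 and 231 in sham replicates 1 to 4. The groups overlapped through the shallow libraries, since TAC replicate 2 (28 reads) was the highest of its group and sham replicate 2 (14 reads) the lowest of its own. The means were 116 ± 32.9 in TAC and 146 ± 69.9 in sham, and no test on all 8 libraries passed (limma −0.23 ± 0.51; edgeR −0.60 ± 0.85, adjusted p = 0.695). Without these libraries edgeR called the circle lower (−0.98 ± 0.35, adjusted p = 0.0475), limma did not (−0.75 ± 0.31, adjusted p = 0.0916), and the length offset on all libraries turned the sign (0.65 ± 0.57, adjusted p = 0.516).

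The share of the 3 to 4 circle within Ogdh was 87.5%, 100%, 92.1% and 94.3% in TAC replicates 1 to 4, against 96.4%, 100%, 97.5% and 99.4% in sham replicates 1 to 4. Outside the shallow libraries, the 3 TAC shares were below the 3 sham shares. The acceptor of exon 3 was used by 5 Ogdh circles, which held 98.2% of the host's reads. Of the other citrate cycle genes, Idh2 (12 reads), Suclg2 (9), Idh3a (7) and Sdha (1) had means under 1 in both groups, except Suclg2, at 1.01 ± 1.24 in TAC and 0.238 ± 0.359 in sham.

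Mitochondrial fusion, fission and inner membrane genes gave 40 circles but only 179 reads. Mfn1, a GTPase that fuses outer membranes, was at 12.6, 0, 10.3 and 6.996 in TAC replicates 1 to 4, against 8.72, 0, 4.97 and 3.502 in sham replicates 1 to 4. The groups overlapped, with the shallow library of each group at 0, and edgeR gave 0.29 ± 0.64 (adjusted p = 0.837). Its leading circle, exons 8 to 14, was at 4.46, 0, 5.15 and 1.91 in TAC, against 0.379, 0, 0.828 and 3.11 in sham (limma 1.19 ± 1.57). It held 33.6% of the host mean and exon 14 was the end of 5 of the 13 circles. TAC replicates 1 and 3 were higher than every sham library, and TAC replicate 4 was lower than sham replicate 4.

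Immt, a core protein of the cristae junctions, averaged 3.73 ± 2.68 in TAC and 5.20 ± 1.56 in sham (edgeR −0.59 ± 0.68, adjusted p = 0.656), with 68.6% of its mean in exons 12 to 13. Opa1, which fuses inner membranes, averaged 1.36 ± 0.941 in TAC and 1.47 ± 2.08 in sham. The fission GTPase gene Dnm1l had 10 reads, and Mfn2 had 7, all in TAC replicates 1 and 4.

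In glycogen and glucose use, Gbe1 was the main host. It encodes the glycogen branching enzyme. The host was at 27.5, 0, 21.6 and 24.2 in TAC replicates 1 to 4, against 9.86, 31.8, 14.1 and 7.004 in sham replicates 1 to 4. The 3 deep TAC libraries were above the 3 deep sham libraries, whereas both shallow ones went the other way, with 0 reads in TAC replicate 2 and 7 in sham replicate 2. The means were 18.3 ± 12.5 in TAC and 15.7 ± 11.1 in sham, and the sign of the log2 fold change depended on those 2 libraries (limma −0.88 ± 1.22 with all 8; 1.28 ± 0.40 without them, adjusted p = 0.0232). Without the shallow pair, the median limma log2 fold change over all hosts was 0.61. edgeR gave 0.33 ± 0.62 for Gbe1 on all 8 (adjusted p = 0.808) and 0.88 ± 0.40 without the shallow pair (adjusted p = 0.130). The circle of exons 4 to 7, at 563 nt, held 97.7% of the host mean, and with the length offset its edgeR value was −0.14 ± 0.57 (adjusted p = 0.900).

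Pfkfb2, the heart isoform of the enzyme that sets fructose 2,6-bisphosphate, averaged 2.46 ± 2.18 in TAC and 0.983 ± 1.16 in sham, and 5 of its 6 circles began at exon 3. Gys1, the muscle glycogen synthase, averaged 1.48 ± 2.10 in TAC and 0.621 ± 1.24 in sham. Pfkm, the muscle phosphofructokinase, had 7 reads in 6 circles. limma tested Pfkfb2 and did not call it (1.26 ± 1.51), and Gys1 and Pfkm, each seen in 3 libraries, were not tested.

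For ATP synthase and phosphocreatine, the signal was that of Atp5o, which encodes a stalk subunit of ATP synthase. Its sum was 2.23, 0, 2.06 and 1.91 in TAC replicates 1 to 4, against 3.79, 4.54, 7.45 and 20.8 in sham replicates 1 to 4. Every TAC library was below every sham library, although the 0 of TAC replicate 2 allows up to 17.3, and sham replicate 4 was well above the other sham libraries. The means were 1.55 ± 1.04 in TAC and 9.15 ± 7.94 in sham. edgeR called the host lower in TAC (−2.77 ± 0.75, adjusted p = 0.00910), also without the 2 shallow libraries (−2.75 ± 0.64, adjusted p = 0.00674). DESeq2 did not (−2.62 ± 0.93, adjusted p = 0.0944), and without sham replicate 4 edgeR's value was −1.85 and no longer called. In both edgeR fits that called it, the host passed the filter through sham libraries only. Ckmt2, the mitochondrial creatine kinase of muscle, had 5 reads.

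The Atp5o circle of exons 4 to 5 made up 94.4% of the host mean. Its levels were 2.23, 0, 1.03 and 1.91 in TAC replicates 1 to 4, against 3.79, 4.54, 7.45 and 19.5 in sham replicates 1 to 4, without overlap before TMM rescaling and with overlap after it. The reads behind them were few in TAC, with 3, 0, 1 and 3, against 10, 1, 9 and 100 in sham. edgeR gave −2.76 ± 0.84 (adjusted p = 0.0193), and −1.42 ± 0.70 (adjusted p = 0.219) with the length offset. The circle passed edgeR's filter through sham libraries only. Leaving out sham replicate 4 gave −1.96 ± 0.89 (adjusted p = 0.185).

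Summed over all hosts, member circles held 0.918%, 2.86%, 1.02% and 1.09% of all reads in TAC replicates 1 to 4, against 1.83%, 0.959%, 1.70% and 1.83% in sham replicates 1 to 4. The 3 deep TAC libraries were below the 3 deep sham libraries, and the shallow library of each group lay on the other side. Without Ogdh the shares were 0.507%, 0.357%, 0.536% and 0.551% in TAC, against 0.7501%, 0.606%, 0.822% and 0.632% in sham. These shares did not overlap, but Ogdh was left out after its share was seen, and TAC replicate 2 and sham replicate 2 rest on 4 and 24 reads (95% Wilson intervals 0.139 to 0.916% and 0.407 to 0.900%). The intervals of TAC replicate 4 (0.480 to 0.633%) and sham replicate 4 (0.585 to 0.683%) also crossed. The deep libraries of the groups also differed in the number of different circles: in 214 member reads drawn from each, 66.4, 59 and 60.8 circles were expected in TAC replicates 1, 3 and 4, against 41.3, 34.8 and 22.6 in sham replicates 1, 3 and 4. At 32 reads, a depth that all 8 libraries reached, 15.8, 3, 14.6 and 14.6 member circles were expected in TAC replicates 1 to 4, against 11.9, 12.8, 12.1 and 8.37 in sham replicates 1 to 4, and TAC replicate 2 was the lowest of all. Over the whole table the 3 deep TAC libraries were likewise above the 3 deep sham libraries, with 7235, 6985 and 7344 expected circles in 17890 reads in TAC, against 5871, 4980 and 4197 in sham.

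Circles under 300 nt, with the main Ogdh circle among them, held 45.4%, 87.5%, 45.3% and 51.0% of member reads in TAC replicates 1 to 4, against 66.2%, 44.7%, 64.8% and 79.7% in sham replicates 1 to 4. The deep TAC libraries were below the deep sham libraries, and the groups overlapped through the shallow ones. Leaving out the Ogdh circle of exons 3 to 4, circles under 300 nt held 10.3%, 3.31% and 8.13% of member reads in TAC replicates 1, 3 and 4, against 21.4%, 29.1% and 42.0% in sham replicates 1, 3 and 4. In the shallow libraries they held 0 of 4 reads in TAC replicate 2 and 12.5% of 24 reads in sham replicate 2. Circles of 500 nt and over held 63.8%, 76.9% and 57.9% in the deep TAC libraries, against 41.0%, 35.1% and 25.3% in the deep sham libraries.

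**Figure D5:**
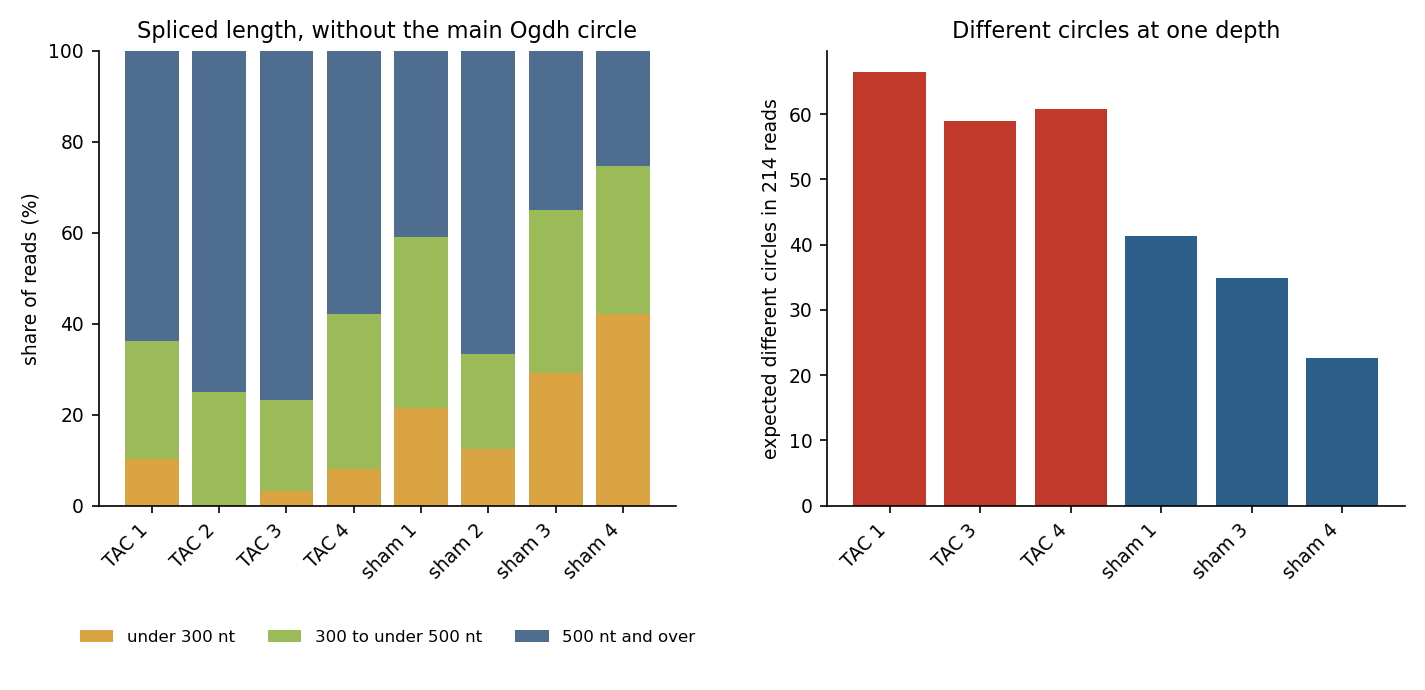
Left, share of member reads by spliced length in each library after leaving out the Ogdh circle of exons 3 to 4, TAC libraries left of sham libraries; right, the number of different member circles expected in 214 reads in the 6 libraries deep enough. Circles under 300 nt hold at most 10.3% in TAC replicates 1, 3 and 4 and at least 21.4% in sham replicates 1, 3 and 4, and TAC replicate 2 rests on 4 reads.

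Other genes of the same pathways were set beside the members. Of 44 further genes of fatty acid handling 29 were hosts, of 61 of pyruvate, citrate cycle and respiratory chain 36, of 41 of mitochondrial dynamics 32, and of 40 of glucose, glycogen and energy sensing 27. No host of these 4 lists was called by limma or edgeR on all 8 libraries. In list order limma tested 13, 14, 17 and 15 of their hosts and edgeR 2, 7, 2 and 4. Over all hosts limma called 0.0337% and edgeR 8.24%. Without the 2 shallow libraries edgeR called 0 of 5, 1 of 9, 0 of 7 and 1 of 6 tested hosts of the lists, in that order, both higher in TAC. Over all hosts that fit called 299 of 1387 (21.6%), 151 of them higher. On all 8 libraries edgeR tested 2, 4, 1 and 4 circles of the lists, and over all circles it called 13.1%. It called 1 circle of the lists, from Oma1, a protease of the inner membrane that cuts OPA1. That circle joined exons 2 to 7 (1222 nt) and was at 12.6, 0, 4.12 and 10.2 in TAC replicates 1 to 4, against 0.379, 9.09, 0 and 0 in sham replicates 1 to 4 (3.70 ± 1.05, adjusted p = 0.0132). The 3 deep TAC libraries were above the 3 deep sham libraries, and the shallow ones overlapped.

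Among those other hosts, Oxct1, which starts ketone body use, was at 45.6 ± 32.8 in TAC and 27.4 ± 9.72 in sham. Dlst, the E2 partner of Ogdh in its complex, averaged 16.8 ± 2.77 in TAC and 9.13 ± 12.1 in sham (edgeR 1.43 ± 0.66, adjusted p = 0.161) and was called higher without the shallow libraries (2.07 ± 0.47, adjusted p = 0.00630). Phkb, a subunit of the kinase that switches on glycogen breakdown, averaged 20.5 ± 13.9 in TAC and 26.6 ± 9.85 in sham, and Atp5c1, the gamma subunit of ATP synthase, 12.1 ± 8.80 in TAC and 12.01 ± 11.1 in sham. The median limma log2 fold change of tested hosts in the 4 lists, in the order given, was −0.88, 0.29, −0.06 and 0.10, against 0.13 over all hosts.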

How the data were processed

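Hearts of 4 TAC and 4 sham mice were profiled; per the labels' protocols circRNA was extracted with a kit and a company made the libraries. HISAT2, StringTie and DESeq2 and the build mm10 are named per the submitters' processing notes, without versions; no source used here names the circRNA caller. The deposited signal is junction reads that the authors scaled by a library size factor. This was read from the values, 100% of which were whole multiples of the smallest value of their library (tolerance 0.001). Whole reads were therefore recovered. edgeR called 94 circles from them.

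The main test was limma (3.58.1, R 4.3.3) with its trend option, on log2 values after adding 0.195 (the lowest value above 0), for features seen in at least 4 of the 8 libraries. Its fold changes are on this log2(value + pseudocount) scale, and for low circles their size depends on the pseudocount. edgeR (4.0.16; TMM, robust, minimum count 5, minimum total 15) and DESeq2 (1.42.0) on the recovered reads were alternatives. Adjusted p-values are Benjamini-Hochberg values over the whole table, with a threshold of 0.05. The SE of edgeR is the log2 fold change divided by the square root of its F statistic. Host sums add all circles of a gene. The length offset is a robust loess (span 0.5) of each library on log2 spliced length. Exon numbers, lengths and sequences come from GENCODE M21 transcripts (mm10), and overlapping genes were not separated. A count of 0 allows up to 3 reads; intervals are 95% Wilson intervals and cover counting error only. Library replicate numbers follow accession order. The code was tested on simulated data.

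The members and lists were chosen with earlier results of these data known. Values of every library were printed for member hosts with a mean of at least 5 and for any member called by limma, edgeR or DESeq2; other members are given by means, counts or ranges, and of the other pathway genes those called, else the 2 with the largest mean of each list. A host that this rule would name is not reported here. The Hadha circle, the library values of Acadm, the Cd36 circles ending at exon 9 or starting at exon 7 and the split of Cd36 were added after their values were seen. Fibroblast (5 of 10 present; sums of 0 to 1.49 in TAC and 1.66 to 4.54 in sham) and smooth muscle and pericyte markers (4 of 8; 12.4 to 28.9 in TAC and 8.28 to 22.7 in sham) were also summed.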

Additional observations from a re-analysis of the deposited data

Results flagged for a closer look

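In 36 groups of 4 libraries, the highest or lowest library was set against Dixon's critical value for 4 samples, which judges its distance from the others. It was passed in 4 groups. Chance passes about 1 in 20 for normal values, a rate that does not hold for these sparse counts. A group with 1 library above 0 and the rest at 0 always passes. The groups also share reads, since hosts and their dominant circles were both included. The Atp5o host sum of TAC replicate 2 was 0, against 1.91 to 2.23 in the other TAC libraries, and 3 reads in that library equal 17.3 normalised reads. The Cd36 circle of exons 6 to 9 was at 0.636 in TAC replicate 4, which is 1 read, with 0 in the other TAC libraries. Member circles held 2.86% of the reads of TAC replicate 2, against 0.918% to 1.09% in the other TAC libraries, and 28 of its 32 member reads came from Ogdh. They held 0.959% of the reads of sham replicate 2, against 1.70% to 1.83% in the other sham libraries.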

How the results depend on the processing

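No paired analysis was possible because the replicate numbers follow accession order and mark no shared mouse, litter or day. For circles, limma's count of 1 was 0 with at least 10 reads in at least 4 libraries, after TMM rescaling, without the intensity trend and with the length trend removed, 94 by edgeR, 34 by DESeq2, 407 without the libraries under 5000 reads and, in a fit added after seeing the data, 210 with the length trend also removed; leaving out 1 library gave 0 to 41. For hosts, limma's count of 1 was 0 with the 10-read filter, after TMM rescaling and without the trend, 84 by edgeR, 28 by DESeq2, 357 without the shallow libraries, and 1 to 28 with 1 library left out. Member circles called by limma (0) became 3 by edgeR, 1 by DESeq2, 4 without the shallow libraries and 4 with the length trend removed as well; member hosts (0) became 2 by edgeR and 3 without the shallow libraries. The 3 member circles called by edgeR became 0 with the 10-read filter, which left few members to test, 6 without the shallow libraries, 1 with the length offset and 0 to 3 with 1 library left out. The 2 member hosts called by edgeR became 1 with the 10-read filter, 4 without the shallow libraries, and 0 to 3 with 1 left out. Non-overlapping member hosts (3) became 1 after TMM rescaling, and circles (4) became 2, a rescaling added after seeing the data. For all circles and hosts, non-overlap was not counted on the TMM scale. The causes of these shifts were not tested.

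Signs turned for limma log2 fold changes of Ogdh (circle −0.23, at −0.58 to 0.041 with 1 library left out, the highest without sham replicate 4, and 0.30 with the length trend removed; host −0.15, at −0.51 to 0.11, the highest again without sham replicate 4), Gbe1 (circle −0.89, at 0.39 by edgeR, 0.51 by DESeq2, 1.27 without both shallow libraries, −1.53 to 0.84 with 1 left out, the highest without TAC replicate 2, and 0.14 with the length trend also removed; host −0.88, at 0.33 by edgeR and 0.33 by DESeq2, 1.28 without both shallow libraries and −1.52 to 0.86 with 1 left out), Mfn1 (circle 1.19, at −0.0054 with the length trend removed and −0.42 also without the shallow libraries; host 0.63, at −0.58 without sham replicate 2 and up to 2.04 without TAC replicate 2) and Hadhb (host −0.28, at −2.10 without sham replicate 2 and 0.24, 0.36 and 0.38 without sham replicate 1, 3 or 4). The described circles of Cd36, Atp5o, Hadhb and Esrrg kept their sign under every alternative run. Depth limits these results: 16 member hosts rest on fewer than 10 reads, and 0 in TAC replicate 2 or sham replicate 2 covers levels up to 17.3 or 13.6 normalised reads.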
